A study of Mus musculus with 15 samples.

Results

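The FGF ligand genes described here are Fgf3, Fgf4, Fgf5, Fgf8, Fgf9, Fgf10, Fgf15, Fgf17 and Fgf18. These 9 genes were taken by symbol from 56092 named genes, by a rule that uses no measured value, although it was written with earlier results of these data known. Their levels were followed across 15 bulk RNA libraries in 8 groups of sorted mouse cells. The cells came from STR-KI, an embryonic stem cell line with the genotype Sox2::mCherry/WT, Tbxt::GFP/WT, so that 1 allele of each gene carries a fluorescent reporter. Sox2 encodes a transcription factor of neural and pluripotent cells, and Tbxt encodes Brachyury, a T-box factor of the primitive streak and early mesoderm. All cells first received 10 ng/mL FGF2 for 48 h and then FGF2 with 5 µM CHIRON99021 (CHIR), which activates WNT signalling by inhibiting GSK3, for 24 h. Neuromesodermal progenitors (NMPs) were then sorted as positive for both reporters (3 libraries). Progeny kept for a further 48 h in FGF/CHIR were sorted as GFP-positive (Tbxt 48 h cells, 2 libraries) or mCherry-positive (Sox2 48 h cells, 2 libraries). Tbxt 7 d cells (3 libraries) descend from GFP-positive cells after 7 d of FGF/CHIR culture and were taken as double negative (DN), that is, without either reporter. Sox2-derived cells, from mCherry-positive cells, had the same time either with FGF/CHIR or with FGF but no CHIR. From FGF/CHIR came 1 DN library and 1 mCherry-positive (Sox2+) library, and from FGF alone 1 DN and 2 Sox2+ libraries. Every group thus carries the same 2 reporter alleles and was exposed to FGF2, so no group lacks added FGF. The cells are 1 line in culture, the reporters gate on 2 genes only, and no label says that the libraries within a group are separate cultures. A p-value measures the spread between these libraries, which may be technical, and the 3 groups with 1 library have no replicate check.

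FGFs are secreted proteins that bind FGF receptors together with heparan sulfate, and the receptors signal mainly through the RAS and ERK cascade. The 9 genes fall into several subfamilies. Fgf8, Fgf17 and Fgf18 form one, Fgf4 and Fgf5 belong to the FGF4 type, Fgf3 and Fgf10 to the FGF7 type, and Fgf9 to a type of its own. Fgf15, the mouse counterpart of human FGF19, belongs to the endocrine type, whose members bind heparan sulfate weakly and use klotho proteins as coreceptors. In the mouse embryo Fgf8 and Fgf4 are made in the primitive streak and tail bud, where they help to maintain presomitic mesoderm. Fgf8 also holds back neural differentiation in the caudal stem zone, and Fgf10 is made by the mesenchyme of the limb bud and lung.

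Promoter sequences show where the members differ in the bases before their starts. Of the 9 genes, 6 matched a RefSeq promoter entry on build GRCm38.p6, and the 250 bases before the start were read. Fgf3 and Fgf4 are printed because they lie next to each other and are compared below. Fgf9, Fgf10 and Fgf5 are printed because each stood highest in a different group or set of groups from Fgf4. All 5 lie on the plus strand, at chr7:144838362-144838611 for Fgf3, chr7:144861136-144861385 for Fgf4, chr14:58072436-58072685 for Fgf9, chr13:118714449-118714698 for Fgf10 and chr5:98253934-98254183 for Fgf5. Sequences run 5′ to 3′, and capitals mark matches on either strand to 3 motif cores.
Fgf3: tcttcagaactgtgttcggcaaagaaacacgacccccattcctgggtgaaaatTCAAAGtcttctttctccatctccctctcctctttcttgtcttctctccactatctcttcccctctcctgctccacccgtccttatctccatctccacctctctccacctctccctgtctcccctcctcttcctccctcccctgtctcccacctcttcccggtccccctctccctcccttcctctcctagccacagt
Fgf4: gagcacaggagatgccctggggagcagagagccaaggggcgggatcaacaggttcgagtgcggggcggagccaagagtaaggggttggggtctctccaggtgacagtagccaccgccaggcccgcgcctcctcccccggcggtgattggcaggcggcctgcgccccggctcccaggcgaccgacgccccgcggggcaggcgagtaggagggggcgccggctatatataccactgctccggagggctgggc
Fgf9: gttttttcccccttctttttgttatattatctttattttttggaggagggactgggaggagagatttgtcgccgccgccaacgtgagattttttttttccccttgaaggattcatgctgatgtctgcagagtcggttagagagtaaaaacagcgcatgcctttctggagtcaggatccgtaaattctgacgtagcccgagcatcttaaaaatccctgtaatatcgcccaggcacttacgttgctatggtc
Fgf10: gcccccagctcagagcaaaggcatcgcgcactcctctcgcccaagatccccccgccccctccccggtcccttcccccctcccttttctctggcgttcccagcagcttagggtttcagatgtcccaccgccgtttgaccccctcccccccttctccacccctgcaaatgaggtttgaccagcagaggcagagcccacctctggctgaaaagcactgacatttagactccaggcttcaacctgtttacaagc
Fgf5: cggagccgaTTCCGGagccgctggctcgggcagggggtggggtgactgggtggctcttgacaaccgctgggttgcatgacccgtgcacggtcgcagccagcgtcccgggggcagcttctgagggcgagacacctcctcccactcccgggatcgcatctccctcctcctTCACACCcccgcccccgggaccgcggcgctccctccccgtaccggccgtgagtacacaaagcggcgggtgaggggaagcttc
The cores searched were TCACACC for T-box factors, CTTTGA for TCF/LEF factors, which act in WNT signalling, and CCGGAA for ETS factors, which act below ERK. None of the 3 cores overlaps another in these windows. Fgf3 held the TCF/LEF core in its reverse complement TCAAAG, starting 197 bases before the gene start. Fgf5 held the T-box core 82 bases and the ETS core, as TTCCGG, 241 bases before the start. Fgf4, Fgf9, Fgf10 and Fgf18 held none of the 3 in these windows. Among all 32851 promoter windows of this length, 3.33% held the T-box core, 13.8% the TCF/LEF core and 12% the ETS core. The windows also differed in base composition, with 44.8% G and C in Fgf9 and 71.2% in Fgf4. A match describes letters and shows no binding.

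Levels are deposited CPM, read counts scaled to a library total of 1000000. The value of 1 read was inferred for each library and put its depth at 3.43 to 9.88 M reads in 14 libraries, where 3 reads correspond to 0.304 to 0.874 CPM. The shallow one is FGF Sox2+ replicate 2 with 0.8 M reads, in which 3.76 CPM correspond to 3 reads. A group whose mean lay at or under the mean 3-read level of its libraries is given as a level. Any fitted difference that involves such a group depends on the pseudocount, also where this is not said beside it. The same holds for an average over groups that takes in such a group. For FGF Sox2+ cells the mean 3-read level is raised by the shallow library, so that a group mean under it does not put replicate 1 under its own 3 reads. These floors cover counting error only. Levels are compared within a gene, between groups, since the values are not per length. In bulk RNA, fewer expressing cells and less RNA per cell cannot be told apart. In the 48 h groups the sorted reporter genes followed the gates. Sox2 stood at 34.2 and 38.5 CPM in Tbxt 48 h cells and at 217 and 221 CPM in Sox2 48 h cells. Tbxt stood at 222 and 216 CPM in Tbxt 48 h cells and at 32.1 and 29.3 CPM in Sox2 48 h cells. Both reporter genes were lower in the DN libraries of Sox2-derived cultures than in the NMP libraries, with Sox2 at 5.03 and 29.1 CPM and Tbxt at 1.14 and 20.4 CPM in the FGF/CHIR DN and the FGF DN library. Tbxt in the FGF DN library was above the Sox2+ libraries of these cultures, at 15.4 CPM in FGF/CHIR and 4.88 and 8.76 CPM in FGF.

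Fgf8, the main FGF of the gastrulating and caudal embryo, had 284, 214 and 191 CPM in NMPs, 123 and 52.5 CPM in Tbxt 48 h cells, and 24.2 and 14.9 CPM in Sox2 48 h cells. At 7 d it had 0.291, 0.396 and 0.527 CPM in Tbxt-derived cells, 0 CPM in FGF/CHIR DN, 36.5 CPM in FGF DN, 4.42 CPM in FGF/CHIR Sox2+, and 7.01 and 2.50 CPM in FGF Sox2+ cells. NMPs were thus highest and the 3 earlier groups did not overlap. Among Sox2-derived cells of 7 d, the single FGF DN library stood above all others, while in the FGF/CHIR medium the DN library was the one at 0.

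Fgf17, which acts with Fgf8 in the midbrain and hindbrain, had 6.48, 9.17 and 6.15 CPM in NMPs, 26.7 and 16.7 CPM in Tbxt 48 h cells, and 13.6 and 16.2 CPM in Sox2 48 h cells. At 7 d it reached 6.68 CPM in FGF/CHIR Sox2+ cells and at most 2.50 CPM in any other library. Both 48 h groups thus lay above the NMPs, unlike for Fgf8, and the lower Tbxt 48 h library lay just above the higher Sox2 48 h library. Fgf18, a ligand of developing lung and skeleton, stood at 1.94, 2.57 and 3.48 CPM in NMPs and at no more than 0.914 CPM in any 48 h library. It had 6.11, 6.14 and 10.3 CPM in Tbxt 7 d cells, 1.60 CPM in FGF/CHIR DN, 0.206 CPM each in FGF DN and FGF/CHIR Sox2+, and 0.637 and 2.50 CPM in FGF Sox2+ cells. Tbxt 7 d cells, its highest group, were under 3 reads per library for Fgf8.

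Fgf4, a ligand of the epiblast, primitive streak and limb bud ridge, had 13.7, 24.9 and 17.3 CPM in NMPs and 10.3 and 5.74 CPM in Tbxt 48 h cells. It had no read in either Sox2 48 h library, in the 3 Tbxt 7 d libraries, or in the 2 Sox2-derived FGF/CHIR libraries. After 7 d in FGF alone it had 2.06 CPM in DN cells, and 2.76 and 0 CPM in Sox2+ cells. Fgf5, a marker of the formative epiblast and later a regulator of the hair cycle, stayed under 1 CPM in all 12 libraries outside the cultures in FGF alone. It had 30.1 CPM in FGF DN, and 5.10 and 0 CPM in the 2 FGF Sox2+ libraries. The value of 0 comes from the shallow library, where 3 reads correspond to 3.76 CPM.

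Fgf3, a ligand of the tail bud and of inner ear induction, had 5.70, 4.82 and 3.37 CPM in NMPs, 16.3 and 9.96 CPM in Tbxt 48 h cells, and 0.757 and 0 CPM in Sox2 48 h cells. At 7 d it was absent from the reads of the 3 Tbxt-derived libraries, and had 4.57 CPM in FGF/CHIR DN and 22.1 CPM in FGF DN. The Sox2+ libraries had 0.103 CPM in FGF/CHIR, and 1.06 and 0 CPM in FGF. Both DN libraries of Sox2-derived cells were thus above every Sox2+ library. Fgf10 stayed at or under 0.482 CPM in all 7 libraries of NMPs and 48 h cells. It had 17.5, 4.75 and 5.14 CPM in Tbxt 7 d cells, 1.37 CPM in FGF/CHIR DN, 14.2 CPM in FGF DN, 0.925 CPM in FGF/CHIR Sox2+, and 0.212 and 0 CPM in FGF Sox2+ cells. Tbxt 7 d replicate 1 was the high library here, as it was for Fgf9 below.

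Fgf9, a ligand that acts on mesenchyme in lung and gonad, had 1.69, 1.29 and 1.51 CPM in NMPs, 59.7 and 73.8 CPM in Tbxt 48 h cells, and 7.57 and 7.9998 CPM in Sox2 48 h cells. At 7 d it had 7.86, 0 and 1.84 CPM in Tbxt-derived cells, 0.914 CPM in FGF/CHIR DN, 1.86 CPM in FGF DN, 7.09 CPM in FGF/CHIR Sox2+, and 2.34 and 2.50 CPM in FGF Sox2+ cells. The 2 Tbxt 48 h libraries stood above all 13 others.

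Fgf15, which the embryo makes in the neural tube and the adult in the ileum, had 24.5, 26.9 and 18.7 CPM in NMPs, 23.4 and 16.5 CPM in Tbxt 48 h cells, and 0.757 and 1.83 CPM in Sox2 48 h cells. At 7 d it had no read in Tbxt-derived cells or in FGF/CHIR DN, 18.4 CPM in FGF DN, 4.83 CPM in FGF/CHIR Sox2+, and 34.2 and 46.3 CPM in FGF Sox2+ cells. NMPs and Tbxt 48 h cells overlapped, and the FGF Sox2+ libraries were the highest of all. Gm26793, an annotated antisense gene that overlaps Fgf15, reached at most 1.92 CPM in any library. Whether counting used strand is not given in the sources used here, so reads of the 2 genes cannot be told apart.

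**Figure D1:**
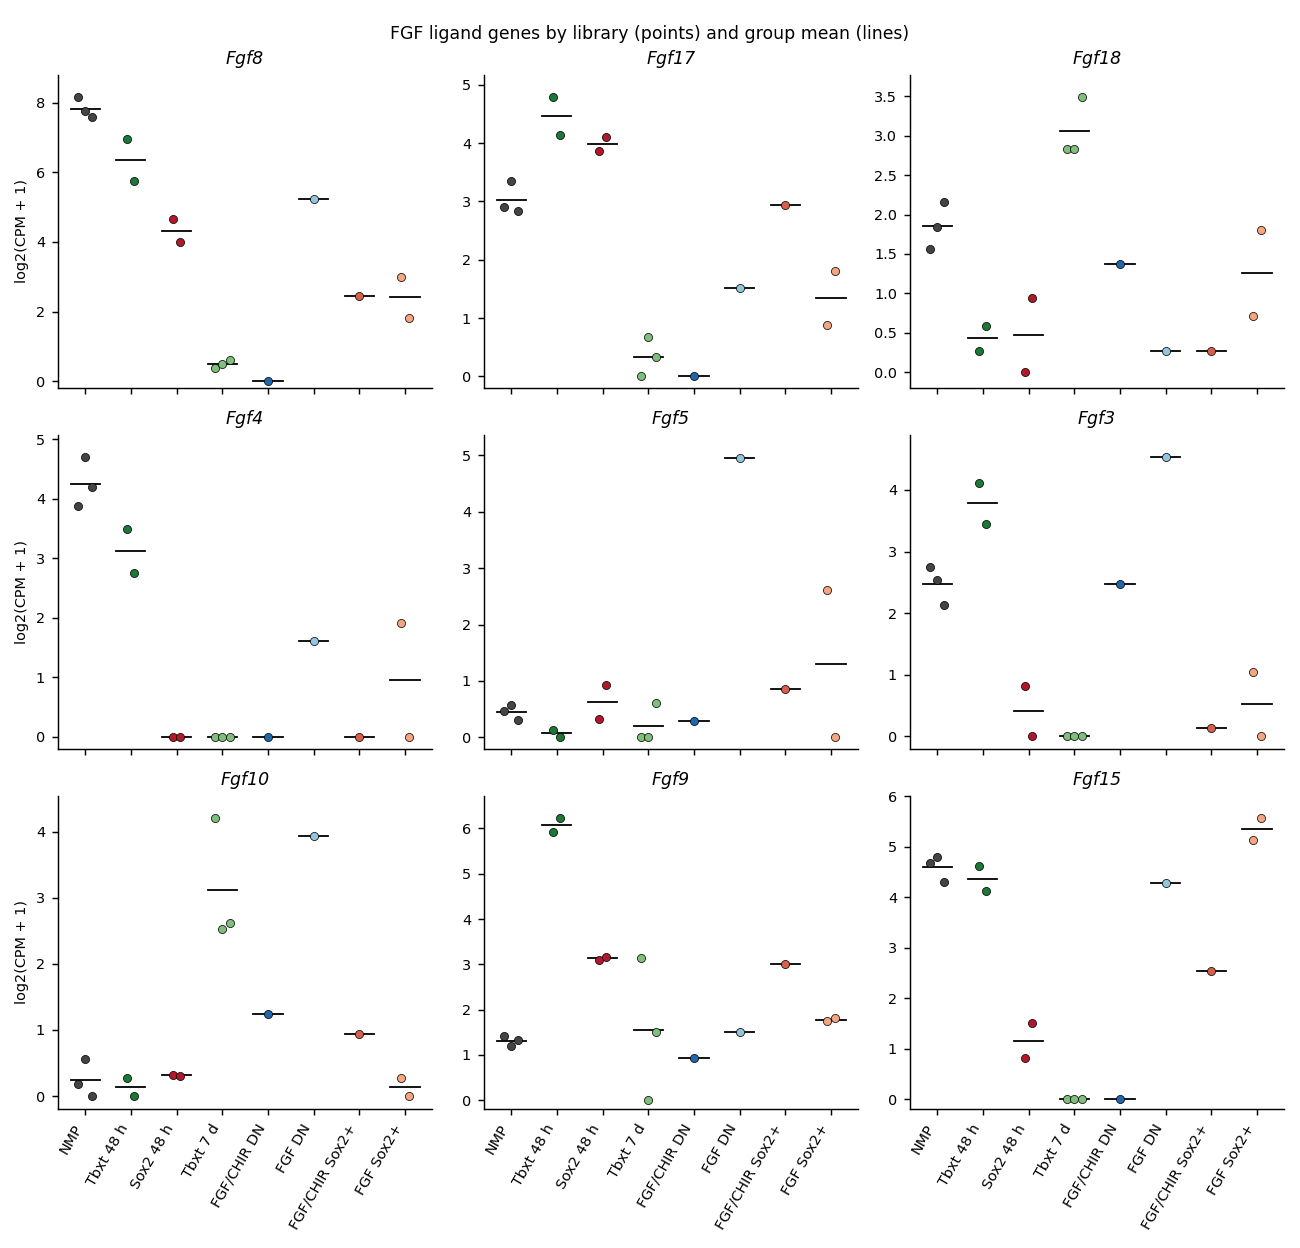
Levels of the 9 FGF ligand genes on the log2(CPM + 1) scale (y axis) in the 8 sorted groups (x axis), with a point for each library and a line at the group mean. Fgf8 and Fgf4 stood highest in NMPs, Fgf9 at 59.7 and 73.8 CPM in Tbxt 48 h cells, Fgf18 in Tbxt 7 d cells, Fgf15 in FGF Sox2+ cells, and Fgf3, Fgf5 and Fgf10 had their highest group in the single FGF DN library.

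Ordered by group mean, neighbouring groups had libraries that did not overlap in a few places. Fgf4 separated NMPs from Tbxt 48 h cells, and Fgf3 separated Tbxt 48 h cells from NMPs. Fgf8 separated NMPs from Tbxt 48 h cells and Sox2 48 h from FGF Sox2+ cells. Fgf17 separated Tbxt 48 h from Sox2 48 h cells and these from NMPs, Fgf9 separated Tbxt 48 h from Sox2 48 h cells, and Fgf15 separated FGF Sox2+ cells from NMPs. Fgf18 separated Tbxt 7 d cells from NMPs. Neighbours that overlapped included NMPs and Tbxt 48 h cells for Fgf15, Tbxt 7 d and FGF Sox2+ cells for Fgf9, and the low groups of Fgf3, Fgf5, Fgf10 and Fgf18. Where either neighbour was a single library, no such statement can be made.

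Differences were tested with limma on log2(CPM + 1) in 1 fit of all 15 libraries, over the 12943 genes that reached 5 CPM in 2 libraries or more, with Benjamini-Hochberg adjustment and a threshold of 0.05. All 9 members passed this filter. Several passed through the groups where they were high (Fgf5 through 2 libraries of the FGF medium), so that their counts describe them and support nothing. A log2 fold change is given ± SE, with the first named group over the second, and "rose", "fell", "higher" and "lower" of a fitted gene mean an adjusted p under 0.05.

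In Sox2 48 h cells Fgf8, Fgf15, Fgf4 and Fgf3 fell relative to NMPs. Time and gate differ together here, from both reporters to mCherry, and cannot be told apart. Fgf8 fell to 19.5 ± 6.63 CPM in Sox2 48 h cells, against 229.8 ± 48.7 CPM in NMPs (SD, n = 2 and 3), a log2 fold change of -3.51 ± 0.39 (limma adjusted p = 0.000164). Fgf15 fell to 1.29 ± 0.758 CPM in Sox2 48 h cells, against 23.3 ± 4.20 CPM in NMPs (-3.43 ± 0.28, limma adjusted p = 1.75e-05). Fgf4 had no read in Sox2 48 h cells, at least 25.9-fold lower than the 18.7 ± 5.71 CPM of NMPs, taking 3 reads per library as the bound (limma adjusted p = 0.000164). Fgf3 fell to 0.379 ± 0.535 CPM in Sox2 48 h cells, under the 3-read level, against 4.63 ± 1.18 CPM in NMPs (limma adjusted p = 0.00638). In all, 4 of the 9 ligand genes were called, each lower, where 7.92% of all tested genes were called in either direction. The members' median log2 fold change was -1.38, beside -0.01 over all tested genes. It is the value of Fgf18, under the 3-read level in Sox2 48 h cells, and depends on the pseudocount. By limma no ligand gene rose at the adjusted threshold, and 2 were higher at an unadjusted p under 0.05. These were Fgf9, at 7.79 ± 0.302 CPM in Sox2 48 h cells, against 1.49 ± 0.200 CPM in NMPs (1.82 ± 0.64, limma adjusted p = 0.116), and Fgf17, at 14.9 ± 1.84 CPM in Sox2 48 h cells, against 7.27 ± 1.65 CPM in NMPs (0.96 ± 0.35, limma adjusted p = 0.128). Fgf18 had 0.457 ± 0.646 CPM in Sox2 48 h cells, against 2.67 ± 0.774 CPM in NMPs (limma adjusted p = 0.0689). Epiblast markers moved with these genes: their summed level over 5 genes was 12.6 to 17.8 CPM in Sox2 48 h libraries, with 4 above the 3-read level, and 224.6 to 280.1 CPM in NMP libraries, with all 5 above it. Markers of NMPs and caudal epiblast, a list that holds both reporter genes, summed to 2068 to 2264 CPM over 7 genes in NMP libraries. In Sox2 48 h libraries they summed to 1047 to 1052 CPM, with Wnt3a at 0. The part of either list in the result was not tested. Without Sox2 48 h replicate 2 the Fgf3 call ended (limma adjusted p = 0.110).

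In Tbxt 48 h cells Fgf9, Fgf3 and Fgf17 rose and Fgf8 and Fgf18 fell relative to NMPs. Here too time and gate differ together, from both reporters to GFP, and cannot be told apart. Fgf9 rose to 66.7 ± 9.91 CPM in Tbxt 48 h cells, against 1.49 ± 0.200 CPM in NMPs (4.76 ± 0.64, limma adjusted p = 0.000466). Fgf3 rose to 13.1 ± 4.48 CPM in Tbxt 48 h cells, against 4.63 ± 1.18 CPM in NMPs (1.31 ± 0.40, limma adjusted p = 0.0371), and Fgf17 to 21.7 ± 7.08 CPM, against 7.27 ± 1.65 CPM in NMPs (1.44 ± 0.35, limma adjusted p = 0.0137). Fgf8 fell to 87.7 ± 49.8 CPM in Tbxt 48 h cells, against 229.8 ± 48.7 CPM in NMPs (-1.48 ± 0.39, limma adjusted p = 0.0206). Fgf18 fell to 0.354 ± 0.215 CPM, under the 3-read level, against 2.67 ± 0.774 CPM in NMPs (limma adjusted p = 0.0353). With 3 higher and 2 lower, 5 of the 9 ligand genes were called, where 18.4% of all tested genes were. Their median was -0.22, beside -0.02 over all tested genes. Fgf4 had 8.03 ± 3.24 CPM in Tbxt 48 h cells and 18.7 ± 5.71 CPM in NMPs (-1.13 ± 0.49, limma adjusted p = 0.125), with libraries that did not overlap. Fgf15 had 19.96 ± 4.84 CPM in Tbxt 48 h cells and 23.3 ± 4.20 CPM in NMPs, and the 95% interval of its log2 fold change ran from -0.84 to 0.39. Presomitic mesoderm markers summed to 693 to 836 CPM over 6 genes in Tbxt 48 h libraries, with all 6 above the 3-read level, and to 105 to 115 CPM in NMP libraries, with 5 above it. Epiblast markers summed to 0.675 to 2.48 CPM in Tbxt 48 h libraries, with Nanog at 0. The part of either list in the result was not tested. Leaving out any 1 of the 5 libraries ended the calls of Fgf3 (limma adjusted p = 0.0627 to 0.225) and Fgf18 (0.0590 to 0.155). The Fgf8 call ended without NMP replicate 1 (0.0759) or Tbxt 48 h replicate 2 (-0.88, 0.305), while its log2 fold change was -2.09 without Tbxt 48 h replicate 1, and the Fgf17 call ended without NMP replicate 3 (0.0542) or Tbxt 48 h replicate 1 (0.123).

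The direct comparison of the 48 h groups shares the libraries of both comparisons above. In it, Tbxt 48 h cells had more Fgf15, Fgf3, Fgf4, Fgf8 and Fgf9 RNA than Sox2 48 h cells. Fgf15 had 19.96 ± 4.84 CPM in Tbxt 48 h cells and 1.29 ± 0.758 CPM in Sox2 48 h cells (SD, n = 2 each), a log2 fold change of 3.21 ± 0.31 (limma adjusted p = 8.14e-05). Fgf3 had 13.1 ± 4.48 CPM in Tbxt 48 h cells and 0.379 ± 0.535 CPM in Sox2 48 h cells (limma adjusted p = 0.000758). Fgf4, at 8.03 ± 3.24 CPM in Tbxt 48 h cells, was at least 11.1-fold higher than in Sox2 48 h cells, which had no read (limma adjusted p = 0.00539). Fgf9 had 66.7 ± 9.91 CPM in Tbxt 48 h cells and 7.79 ± 0.302 CPM in Sox2 48 h cells (2.94 ± 0.70, limma adjusted p = 0.0391), and Fgf8 had 87.7 ± 49.8 CPM and 19.5 ± 6.63 CPM in the same 2 groups (2.03 ± 0.43, limma adjusted p = 0.0205). These 5 of the 9 ligand genes were called, all higher, where 3.9% of all tested genes were called in either direction, and none was lower at an unadjusted p under 0.05 in limma. Their median was 2.03, beside 0.02 over all tested genes. Fgf17 had 21.7 ± 7.08 CPM in Tbxt 48 h cells and 14.9 ± 1.84 CPM in Sox2 48 h cells, with an interval of -0.35 to 1.32 on the log2 scale. Presomitic mesoderm markers summed to 693 to 836 CPM in Tbxt 48 h libraries and to 62.4 to 72.7 CPM in Sox2 48 h libraries, and their part in the result was not tested. The Fgf9 call ended without any 1 of the 4 libraries (limma adjusted p = 0.0954 to 0.296). Without Sox2 48 h replicate 2 or Tbxt 48 h replicate 1, Fgf8 (0.222 and 0.111) and Fgf4 (0.0555 and 0.0549) were not called either, and the Fgf8 value ran from 1.42 to 2.63 over the libraries left out.

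**Figure D2:**
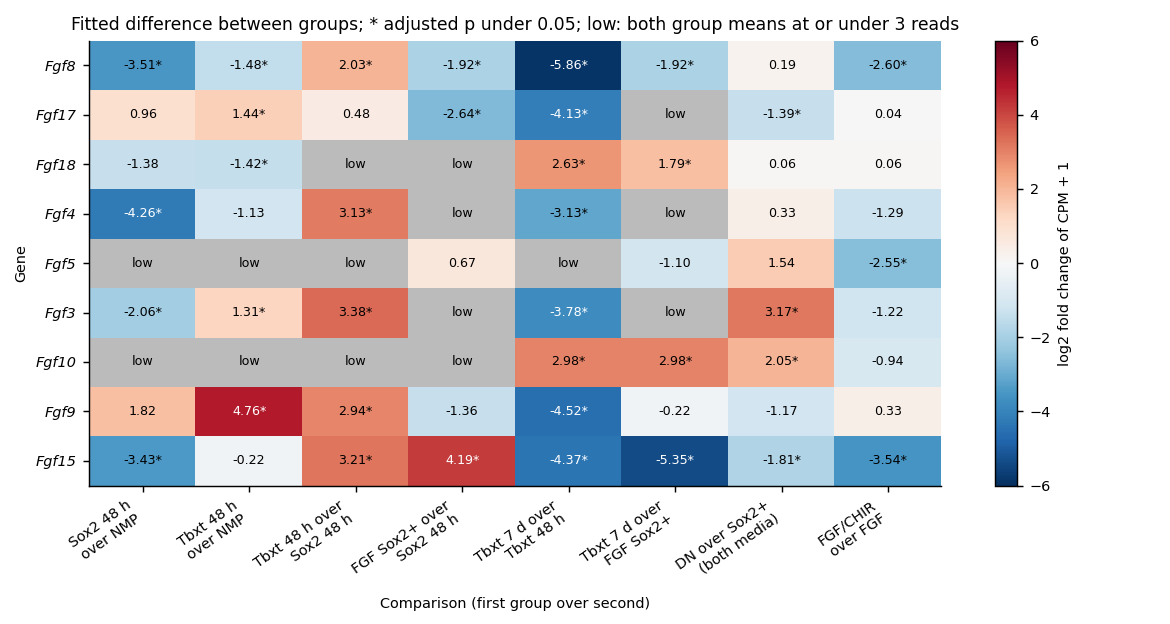
Fitted log2 fold change of CPM + 1 (color and printed value, first group over second) for the 9 FGF ligand genes (y axis) in 8 comparisons (x axis), with an asterisk where the adjusted p was under 0.05 and "low" where both group means were at or under the mean 3-read level. Fgf15 stood at -3.43 in Sox2 48 h cells over NMPs, 3.21 in Tbxt 48 h over Sox2 48 h cells, against 4.19 in FGF Sox2+ over Sox2 48 h cells. A value with 1 group at 3 reads depends on the pseudocount, and several columns share libraries.

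Sox2-derived cells kept in FGF alone for 7 d and still Sox2+ differed from Sox2 48 h cells in Fgf15, Fgf8 and Fgf17. Time and medium change together in this comparison and cannot be told apart. Fgf15 rose to 40.3 ± 8.59 CPM in FGF Sox2+ cells, against 1.29 ± 0.758 CPM in Sox2 48 h cells (SD, n = 2 each), a log2 fold change of 4.19 ± 0.31 (limma adjusted p = 4.30e-06). Fgf17 fell to 1.68 ± 1.17 CPM in FGF Sox2+ cells, under the mean 3-read level, against 14.9 ± 1.84 CPM in Sox2 48 h cells (limma adjusted p = 0.000442). Fgf8 fell to 4.76 ± 3.18 CPM in FGF Sox2+ cells, against 19.5 ± 6.63 CPM in Sox2 48 h cells (-1.92 ± 0.43, limma adjusted p = 0.00676). Thus 1 ligand gene rose and 2 fell, 3 of 9, where 24.7% of all tested genes were called. The members' median is the value of Fgf3, under the mean 3-read level in both groups, and so depends on the pseudocount. It was 0.12, beside 0.17 over all tested genes. Median-of-ratios scaling moved this last value to 0.01 and the split of all called genes to 1720 higher and 1365 lower, against 2361 higher and 842 lower as deposited, and it left the 3 ligand calls in place. Fgf9 had 2.42 ± 0.119 CPM in FGF Sox2+ cells, against 7.79 ± 0.302 CPM in Sox2 48 h cells (-1.36 ± 0.70, limma adjusted p = 0.178). Neural progenitor markers summed to 441 to 560 CPM over 6 genes in FGF Sox2+ libraries, with all but Olig2 above the 3-read level. In Sox2 48 h libraries they summed to 79.0 to 120.7 CPM, with Olig2 at 0. Nkx6-1 went the other way, at 10.2 and 3.76 CPM in FGF Sox2+ libraries, against 14.9 and 53.0 CPM in Sox2 48 h libraries. Neuron markers summed to 183 to 622 CPM over 5 genes in FGF Sox2+ libraries, all 5 above the 3-read level, and to 19.7 to 33.5 CPM in Sox2 48 h libraries, with Dcx at 0. Epiblast markers summed to 172 to 356 CPM in FGF Sox2+ libraries and to 12.6 to 17.8 CPM in Sox2 48 h libraries. Much of the FGF Sox2+ sums came from Pou3f1, at 178 and 104 CPM in replicates 1 and 2, and Cdh1, at 91.5 and 41.3 CPM. In the same order Utf1 had 50.5 and 16.3 CPM, Pou5f1 30.1 and 10.0 CPM and Nanog 5.73 and 0 CPM. The part of these 3 lists in the result was not tested. The Fgf8 call ended without Sox2 48 h replicate 1 (0.0614) or FGF Sox2+ replicate 2 (-1.32, 0.0683), and its log2 fold change was -2.51 without FGF Sox2+ replicate 1.

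In Tbxt-derived cells, 6 ligand genes that were present at 48 h fell by 7 d and 2 others rose. Time and gate change together in this comparison, from GFP-positive to double negative cells, and cannot be told apart. Fgf15, at 0 CPM in Tbxt 7 d cells, was at least 26.5-fold lower than in Tbxt 48 h cells at 19.96 ± 4.84 CPM (limma adjusted p = 1.30e-07). Fgf3 and Fgf4, also without a read in Tbxt 7 d cells, were at least 17.4-fold and at least 10.7-fold lower (limma adjusted p = 6.46e-06 and 0.000155). Fgf8 fell to 0.405 ± 0.118 CPM in Tbxt 7 d cells, against 87.7 ± 49.8 CPM in Tbxt 48 h cells (limma adjusted p = 2.11e-07), and Fgf17 to 0.286 ± 0.298 CPM, against 21.7 ± 7.08 CPM (limma adjusted p = 1.15e-06). Fgf9 fell to 3.24 ± 4.11 CPM in Tbxt 7 d cells, against 66.7 ± 9.91 CPM in Tbxt 48 h cells (-4.52 ± 0.64, limma adjusted p = 0.000109). Fgf10 rose to 9.12 ± 7.24 CPM in Tbxt 7 d cells, against 0.101 ± 0.143 CPM in Tbxt 48 h cells (limma adjusted p = 0.000169), and Fgf18 to 7.51 ± 2.39 CPM, against 0.354 ± 0.215 CPM (limma adjusted p = 0.000218). Thus 8 of the 9 were called, where 54.2% of all tested genes were, with a median of -3.78 beside 0.09 over all tested genes. That median is the value of Fgf3, without a read in Tbxt 7 d cells, and depends on the pseudocount. Fgf5 was at or under 3 reads in both groups. Mesenchyme markers, among them Col1a1 and Pdgfra, summed to 6361 to 7661 CPM over 6 genes in Tbxt 7 d libraries and to 153 to 160.1 CPM in Tbxt 48 h libraries, with all 6 above the 3-read level in both. Presomitic mesoderm markers summed to 6.06 to 8.15 CPM in Tbxt 7 d libraries, with Msgn1 at 0, and the part of either list in the result was not tested. All 8 calls held without any 1 library, and the log2 fold change of Fgf9 ran from -5.32 without Tbxt 7 d replicate 1 to -3.75 without Tbxt 7 d replicate 2, and that of Fgf8 from -6.47 without Tbxt 48 h replicate 2 to -5.25 without Tbxt 48 h replicate 1.

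The end points of 7 d, Tbxt-derived cells in FGF/CHIR and Sox2+ cells in FGF alone, differed in derivation, medium and gate together. Fgf15 had no read in Tbxt 7 d cells, at least 53.5-fold lower than the 40.3 ± 8.59 CPM of FGF Sox2+ cells (limma adjusted p = 3.93e-08). Fgf8 had 0.405 ± 0.118 CPM in Tbxt 7 d cells and 4.76 ± 3.18 CPM in FGF Sox2+ cells (limma adjusted p = 0.00155). Fgf10 was higher, at 9.12 ± 7.24 CPM in Tbxt 7 d cells and 0.106 ± 0.150 CPM in FGF Sox2+ cells (limma adjusted p = 0.000215), as was Fgf18, at 7.51 ± 2.39 CPM and 1.57 ± 1.32 CPM in the same 2 groups (limma adjusted p = 0.00395). With Fgf17, whose group means were both under the mean 3-read level, at 0.286 ± 0.298 CPM in Tbxt 7 d cells, against 1.68 ± 1.17 CPM in FGF Sox2+ cells (limma adjusted p = 0.0311), 2 ligand genes were higher and 3 lower, 5 of 9, where 47.6% of all tested genes were called. The median was -0.96, beside -0.07 over all tested genes. It is the value of Fgf4, whose group means were both under the mean 3-read level, so it depends on the pseudocount. Fgf9 had 3.24 ± 4.11 CPM in Tbxt 7 d cells and 2.42 ± 0.119 CPM in FGF Sox2+ cells, with an interval of -1.62 to 1.17 on the log2 scale. Mesenchyme markers summed to 6361 to 7661 CPM in Tbxt 7 d libraries and to 85.1 to 447 CPM in FGF Sox2+ libraries, and their part in the result was not tested. The Fgf8 call held without either FGF Sox2+ library, at -1.32 without replicate 1 and -2.51 without replicate 2.

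Within the Sox2-derived cultures of 7 d, the DN cells of both media were set against the Sox2+ cells of both media. Each medium has 1 DN library, and FGF/CHIR has 1 Sox2+ library, so each p borrows its error from groups with replicates, and a group cannot be told apart from its library. Fgf3 was higher in DN cells, at 4.57 and 22.1 CPM in the 2 DN libraries and at no more than 1.06 CPM in the 3 Sox2+ libraries (limma adjusted p = 0.000248). Fgf10 was also higher in the mean of both media (limma adjusted p = 0.0138). In FGF it had 14.2 CPM in DN and 0.212 and 0 CPM in Sox2+ cells. In FGF/CHIR the values lay close, at 1.37 CPM (6 reads) in DN and 0.925 CPM (9 reads) in Sox2+ cells. Fgf15 was lower in DN cells, at 0 and 18.4 CPM in the FGF/CHIR and FGF media, against 4.83 CPM, and 34.2 and 46.3 CPM, in the Sox2+ cells of those media (-1.81 ± 0.29, limma adjusted p = 0.00129). Fgf17 was lower in the mean of both media (-1.39 ± 0.36, limma adjusted p = 0.0229), with 0 CPM in DN and 6.68 CPM in Sox2+ cells in FGF/CHIR, and 1.86 CPM in DN and 0.849 and 2.50 CPM in Sox2+ cells in FGF. Thus 4 of 9 were called, 2 in each direction, where 14.1% of all tested genes were called. The FGF/CHIR DN library had no read of Fgf8, Fgf15 or Fgf17, so their fitted values depend on the pseudocount. The value of Fgf15 ran from -2.73 to -1.06 over the alternatives. That of Fgf8 was the members' median of 0.19, beside -0.10 over all tested genes. Median-of-ratios scaling moved this last value to 0.01 and the split of all called genes to 1206 higher and 611 lower, against 921 higher and 905 lower as deposited, and all 4 ligand calls held. In a fit of these 5 libraries alone, Fgf10 and Fgf17 were not called (limma adjusted p = 0.101 and 0.275), and a pseudocount of 4 CPM ended the Fgf17 call as well (-0.68, limma adjusted p = 0.0566).

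The FGF DN library stood above the mean of every other group for Fgf3, Fgf5 and Fgf10, and several markers of endoderm stood high in it. Endoderm markers summed to 956 CPM over 6 genes in FGF DN and to 155 CPM in FGF/CHIR DN, against 4.11 CPM in FGF/CHIR Sox2+ and 3.40 to 8.76 CPM in FGF Sox2+ libraries. In FGF DN, 5 of the 6 were above the 3-read level, with Gata6 at 459.6 CPM, Sox17 at 228 CPM, Ttr at 147 CPM and Foxa2 at 119.9 CPM. Foxa1 did not stand out, at 1.44 CPM in FGF DN and 1.37 CPM in FGF/CHIR DN, against 2.33 and 3.88 CPM in Tbxt 48 h libraries. Apoa1 had 0.413 CPM in FGF DN, under the 3-read level. In FGF/CHIR DN 5 of the 6 were above it, and Apoa1 was at 0. Epiblast markers summed to 348 CPM over 5 genes in FGF DN, all above the 3-read level, with Nanog at 21.7 CPM and Pou5f1 at 70.3 CPM. They summed to 169 CPM in FGF/CHIR DN, 12.3 CPM in FGF/CHIR Sox2+ and 172 to 356 CPM in FGF Sox2+ libraries, a range that holds the FGF DN value. Among them Pou3f1, at 74.7 CPM in FGF DN, was under both FGF Sox2+ libraries, at 178 and 104 CPM. Utf1, at 40.2 CPM in FGF DN, lay between theirs, and Nanog, Pou5f1 and Cdh1 were above both. Mesenchyme markers summed to 2283 CPM in FGF/CHIR DN and 398 CPM in FGF DN, against 536 CPM in FGF/CHIR Sox2+ and 85.1 to 447 CPM in FGF Sox2+ libraries, a range that holds the FGF DN value. Among them Pdgfra, at 162.6 CPM in FGF DN, was above both FGF Sox2+ libraries, at 2.34 and 6.26 CPM. Col3a1 was also above both, at 101.8 CPM against 14.2 and 56.3 CPM. Col1a2 was under both, at 12.0 CPM against 19.3 and 107.7 CPM, and Col1a1, Prrx1 and Twist1 lay between. Endothelium and blood markers summed to 49.1 CPM over 5 genes in FGF DN, with 3 above the 3-read level and Gata1 and Hbb-bh1 at 0, and to at most 6.26 CPM in any other library. Of that sum Cdh5 gave 43.5 CPM, while Kdr at 4.75 CPM and Pecam1 at 0.825 CPM were each under the higher FGF Sox2+ library, at 6.26 and 2.55 CPM. The part of these lists in the ligand values was not tested.

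**Figure D3:**
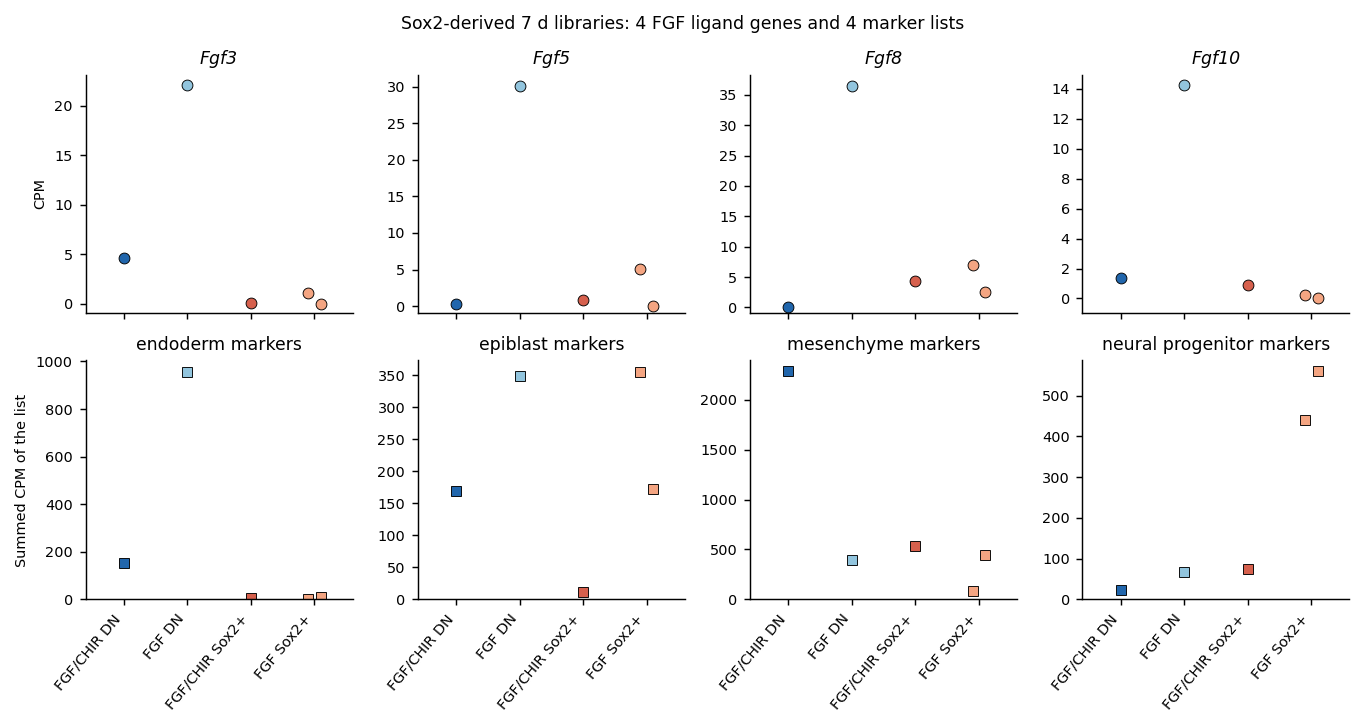
The 5 Sox2-derived libraries of 7 d (x axis, a point each), with 4 FGF ligand genes in CPM (upper row) and the summed CPM of 4 marker lists (lower row). Fgf3, Fgf5, Fgf8 and Fgf10 stood highest in the FGF DN library, where endoderm markers summed to 956 CPM. Epiblast markers summed to 348 CPM there, within the 172 to 356 CPM of the FGF Sox2+ libraries.

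The medium was compared as FGF/CHIR over FGF, averaged over DN and Sox2+ cells. Fgf15 fell, at 0 CPM in DN and 4.83 CPM in Sox2+ cells in FGF/CHIR, against 18.4 CPM in DN and 34.2 and 46.3 CPM in Sox2+ cells in FGF (-3.54 ± 0.29, limma adjusted p = 1.38e-05). Fgf8 fell in the mean, at 0 and 4.42 CPM in the FGF/CHIR libraries, against 36.5 CPM in DN and 7.01 and 2.50 CPM in Sox2+ cells in FGF (-2.60 ± 0.40, limma adjusted p = 0.00112). Fgf5 fell, at 0.229 and 0.822 CPM in FGF/CHIR, against 30.1 CPM in DN and 5.10 and 0 CPM in Sox2+ cells in FGF (-2.55 ± 0.61, limma adjusted p = 0.0144). For Fgf15 the media did not overlap, whereas an FGF Sox2+ library lay between the FGF/CHIR values for Fgf8 and below both for Fgf5. These were 3 of 9 called, all lower, where 13.8% of all tested genes were called, and none was higher at an unadjusted p under 0.05 in limma. Neural progenitor markers summed to 23.1 CPM in DN and 75.6 CPM in Sox2+ cells in FGF/CHIR, with Olig2 at 0 in both, against 66.2 CPM in DN and 441 to 560 CPM in Sox2+ cells in FGF, and their part in the result was not tested. Fgf8 and Fgf15 had no read in FGF/CHIR DN, and Fgf5 had 1, so these fitted values depend on the pseudocount. Over the alternatives they ran from -3.57 to -1.67 for Fgf8 and from -4.60 to -2.40 for Fgf15. The members' median was -1.22, beside -0.03 over all tested genes. It is the value of Fgf3, which had 1 read in FGF/CHIR Sox2+ cells, and depends on the pseudocount too. Fgf3 had 4.57 and 0.103 CPM in FGF/CHIR, against 22.1 CPM in DN and 1.06 and 0 CPM in Sox2+ cells in FGF (-1.22 ± 0.41, limma adjusted p = 0.0669). Leaving out FGF Sox2+ replicate 2, the shallow library, added Fgf3 and Fgf4 to the calls. The Fgf5 value was -1.90 without FGF Sox2+ replicate 1 and -3.20 without replicate 2, and its call ended in a fit of these libraries alone (limma adjusted p = 0.0962) and with a pseudocount of 0.25 CPM (0.0883).

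Whether DN and Sox2+ cells differed alike in the 2 media was tested as a difference of differences, chosen after the data were seen. In FGF, Fgf8 had 36.5 CPM in DN and 7.01 and 2.50 CPM in Sox2+ cells, and in FGF/CHIR 0 CPM in DN and 4.42 CPM in Sox2+ cells. The fitted difference of the log2 fold changes, FGF minus FGF/CHIR, was 5.26 ± 0.80 (limma adjusted p = 0.00559). Since the FGF/CHIR DN library is at 0, this value depends on the pseudocount, and it was 7.26 with 0.25 CPM and 3.33 with 4 CPM, called in both. For Fgf17, also at 0 in that library, the limma adjusted p was 0.0416, and these were the 2 ligand genes called, where 2.44% of all tested genes were. Fgf5 (limma adjusted p = 0.0986) and Fgf10 (limma adjusted p = 0.0827) missed the threshold. The Fgf17 call ended with a pseudocount of 4 CPM (limma adjusted p = 0.0966) and in a fit of these libraries alone (limma adjusted p = 0.463). The Fgf8 value was 5.86 without FGF Sox2+ replicate 1 and 4.67 without replicate 2.

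Among the other 9 secreted FGF ligand genes, 1 passed the filter, Fgf2. It reached 5 CPM only in libraries of Tbxt 7 d cells, and so passed through the group where it was high. Fgf2, the factor that is also added to the medium as protein, rose to 8.16 ± 4.36 CPM in Tbxt 7 d cells, against 0.523 ± 0.262 CPM in Tbxt 48 h cells (limma adjusted p = 0.00031). Fgf6, Fgf16 and Fgf23 had no read in any library. Of the 4 intracellular FGF homologous factors, which are not secreted ligands, Fgf12 and Fgf13 passed the filter. Fgf13, a regulator of sodium channels, was higher in Tbxt 48 h cells at 15.2 ± 3.02 CPM than in NMPs at 8.64 ± 0.568 CPM (0.74 ± 0.23, limma adjusted p = 0.0406).

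Of 7 receptor and coreceptor genes, 6 passed the filter. Fgfr1, the main receptor of the early embryo, was present in all groups, and Fgfr2, whose splice forms distinguish epithelium from mesenchyme, stood at 13.4 CPM or more in all 8 libraries of 7 d and at 5.91 CPM or less in the other 7. Fgfr2 rose to 80.6 ± 13.4 CPM in FGF Sox2+ cells, against 3.44 ± 1.12 CPM in Sox2 48 h cells (4.21 ± 0.27, limma adjusted p = 2.54e-06), and to 108.9 ± 7.90 CPM in Tbxt 7 d cells, against 5.28 ± 0.884 CPM in Tbxt 48 h cells (4.13 ± 0.25, limma adjusted p = 7.22e-08). Fgfr1 rose to 272 ± 25.9 CPM in Tbxt 7 d cells, against 116.8 ± 8.11 CPM in Tbxt 48 h cells (1.212 ± 0.17, limma adjusted p = 5.62e-05). Fgfr3, a receptor of neural progenitors and cartilage, rose to 28.5 ± 0.395 CPM in FGF Sox2+ cells, against 0.379 ± 0.535 CPM in Sox2 48 h cells (limma adjusted p = 0.000365). In FGF/CHIR, Fgfr3 had 3.20 CPM in DN and 0 CPM in Sox2+ cells, against 23.9 CPM in DN and 28.2 and 28.8 CPM in Sox2+ cells in FGF (-3.73 ± 0.59, limma adjusted p = 0.0013). The last Fgfr3 value depends on the pseudocount, since FGF/CHIR Sox2+ cells had no read. Klb, the coreceptor for endocrine FGFs in liver and other tissues, had 19.0 and 21.0 CPM in the 2 DN libraries of Sox2-derived cells, and at most 1.25 CPM in any of the other 13 libraries. The 2 DN libraries are those with the high endoderm marker sums given above, whose part in the Klb values was not tested. Fgfr4, the receptor that works with Klb for FGF15, had 5.71 and 38.8 CPM in the FGF/CHIR and FGF DN libraries, against 0.308 CPM, and 7.43 and 3.76 CPM, in the Sox2+ libraries of those media. Fgfr3, Fgfr4 and Klb reached 5 CPM only in libraries of 7 d, and so passed the filter through groups where they were high. The counts that follow thus describe these genes and support nothing. Of the 6 tested, 4 rose in FGF Sox2+ over Sox2 48 h cells, where 18.2% of all tested genes rose. In Tbxt 7 d over Tbxt 48 h cells 2 of the 6 rose, near the 30.7% of all tested genes, and in FGF/CHIR over FGF 3 of the 6 fell, where 7.86% of all did. In Tbxt 48 h over Sox2 48 h cells limma called 0 of the 6, and 2 at an unadjusted p under 0.05.

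**Figure D4:**
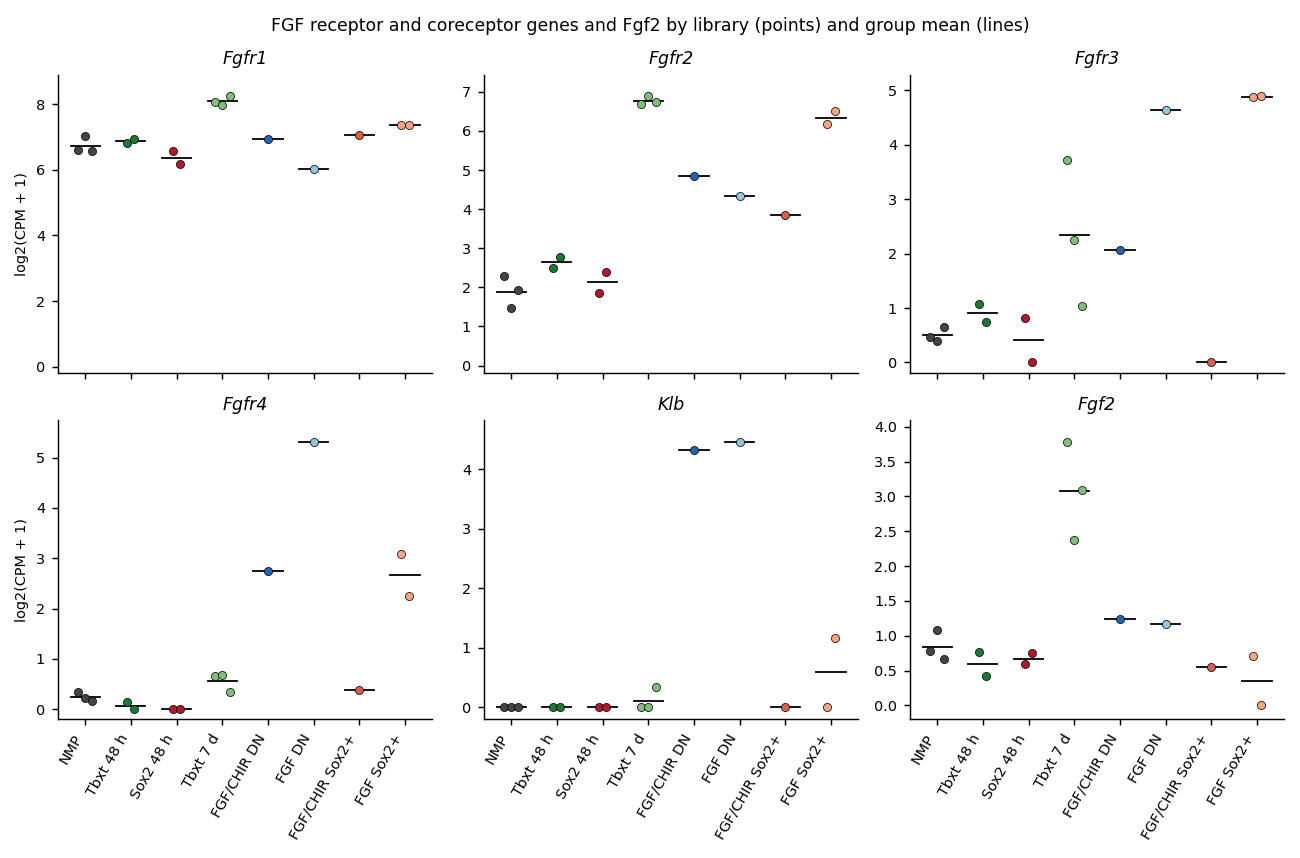
Levels of 4 FGF receptor genes, the coreceptor gene Klb and the ligand gene Fgf2 on the log2(CPM + 1) scale (y axis) in the 8 groups (x axis), with a point for each library and a line at the group mean. Fgfr2 stood at 13.4 CPM or more in all 8 libraries of 7 d, and Klb reached 19.0 and 21.0 CPM in the 2 DN libraries of Sox2-derived cells.

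The feedback and target genes of ERK signalling, which encode phosphatases, Sprouty proteins and ETS factors that FGF signalling induces, numbered 14, and all passed the filter. In Tbxt 7 d over Tbxt 48 h cells 9 fell, where 23.5% of all tested genes fell, and the median was -1.10, beside 0.09 over all tested genes. Dusp6, the ERK phosphatase, had 104.2, 5.94 and 4.74 CPM in Tbxt 7 d cells and 163 and 237 CPM in Tbxt 48 h cells (-3.62 ± 1.01, limma adjusted p = 0.0135). Spry4, a Sprouty inhibitor of receptor signalling, had 11.4, 0.594 and 0.79 CPM in Tbxt 7 d cells and 22.6 and 35.8 CPM in Tbxt 48 h cells (-3.17 ± 0.72, limma adjusted p = 0.00357). Tbxt 7 d replicate 1 was the high library for both, as for Fgf9 and Fgf10. In FGF/CHIR over FGF 2 of the 14 rose, where 5.94% of all tested genes did, Etv4, an ETS factor, at 40.2 CPM in DN and 49.1 CPM in Sox2+ cells, against 10.7 CPM in DN and 12.5 and 16.3 CPM in Sox2+ cells in FGF (1.76 ± 0.45, limma adjusted p = 0.0232), and Il17rd, a feedback inhibitor of FGF signalling (1.36 ± 0.24, limma adjusted p = 0.00233). These 2 genes were thus higher in the medium in which Fgf5, Fgf8 and Fgf15 were lower. In Sox2 48 h cells over NMPs 1 of the 14 fell, near the 5.27% of all tested genes, Dusp4, another ERK phosphatase (-1.34 ± 0.35, limma adjusted p = 0.0347). Of 14 tested signal transducers, 2 rose in FGF Sox2+ over Sox2 48 h cells, where 18.2% of all tested genes rose, among them Frs2, the adaptor of FGF receptors (1.22 ± 0.26, limma adjusted p = 0.00477).

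The heparan sulfate and FGF-binding genes numbered 19, and all passed the filter. In Tbxt 7 d over Tbxt 48 h cells 10 rose and 2 fell, so that 12 were called where 54.2% of all tested genes were, with Sdc2, a syndecan core protein, at 286 CPM in Tbxt 7 d cells and 20.6 CPM in Tbxt 48 h cells (3.47 ± 0.53, limma adjusted p = 0.000301). In Tbxt 48 h cells over NMPs 5 rose and 3 fell, where 18.4% of all tested genes were called. Fgfbp3, which encodes a secreted FGF-binding protein, fell to 12.4 CPM in Tbxt 48 h cells, against 231 CPM in NMPs (-4.14 ± 0.24, limma adjusted p = 6.26e-07). Gpc3, a glypican core protein, rose to 316 CPM, against 54.4 CPM in NMPs (2.57 ± 0.35, limma adjusted p = 0.000685). Flrt3, a membrane protein that binds FGF receptors, was higher in the DN than in the Sox2+ cells of 7 d, at 358 CPM and 36.4 CPM in the mean of both media (3.09 ± 0.22, limma adjusted p = 1.93e-06).

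The genes whose group means followed each ligand gene most closely were found by Pearson's r of the mean log2(CPM + 1) over the 8 groups. These values describe 8 points that share libraries and carry no p. Named genes were picked for the highest r among all tested genes outside the FGF family, so a high r shows no link. Fgf8 was most like Zfp472 (r = 0.98), Gm5165 (0.97) and Tbxt (0.96). Fgf4 was most like Fdxacb1 (0.96), the progesterone receptor gene Pgr (0.94) and Mixl1 (0.94), a homeobox gene of the primitive streak. Fgf9 was most like Sowahc, Ankrd27 and Crlf3 (0.95, 0.95 and 0.94), and Fgf15 was most like Rims3, Ric3 and Bnip3l (0.97, 0.96 and 0.95). Fgf3 was most like Arl4d (0.96), Fgf5 like Rassf3 (0.98), Fgf10 like Slc39a13 (0.98), Fgf17 like Tada2a (0.98) and Fgf18 like Gm10509 (0.96). Among the members themselves, Fgf4 and Fgf8 were most alike (r = 0.87), followed by Fgf9 and Fgf17 (0.78), and Fgf17 and Fgf18 were least alike (-0.57).

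Fgf3, Fgf4 and Fgf15 are neighbours on chromosome 7, with no other protein-coding gene between them in RefSeq (GRCm38.p6). The order there is Fadd, Ano1, Fgf3, Fgf4, Fgf15, LTO1, Ccnd1 and Tpcn2. Over the 8 groups r was 0.60 for Fgf3 and Fgf4, 0.70 for Fgf4 and Fgf15, and 0.41 for Fgf3 and Fgf15. All 3 were low in Sox2 48 h cells and without a read in Tbxt 7 d cells. They parted in FGF Sox2+ cells, where Fgf15 had 34.2 and 46.3 CPM while Fgf3 had 1.06 and 0 CPM and Fgf4 had 2.76 and 0 CPM, and in FGF/CHIR DN, where Fgf3 alone of the 3 had reads. Of the neighbours, Ccnd1, the cyclin D1 gene, stood between 171 and 563 CPM and LTO1 between 5.05 and 14.7 CPM in all 15 libraries. Ano1 stayed at or under 5.01 CPM.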

How the data were processed

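Poly-A RNA was sequenced from 15 libraries in 8 groups, grouped by their labels. The authors deposited CPM per gene, that is, counts scaled to a total of 1000000 in each library. Per the submitters' processing notes, STAR 2.7, SAMtools 1.21 and GRCm39 were used, and the sources used here do not give the annotation, the counting tool, its strand setting or the use of molecular identifiers. Of 78409 rows in the deposited table, 21909 have no gene name (1.10 to 1.81% of a library's CPM) and 92 are spike-ins. These were left out, and rows that share a symbol were summed. Brachyury, listed as T, was renamed Tbxt. The commonest value above 0 in a library was taken as 1 read. With it 71.1 to 78.7% of values in the 15 libraries came out whole within 0.01 reads, so no count model was used. CPM after PCR may include copies of 1 molecule.

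Levels were tested as log2(CPM + 1) with limma 3.58.1 (trend, robust) in R 4.3.3, with 7 residual degrees of freedom and Benjamini-Hochberg adjustment over all 12943 genes tested. The fit was also run on simulated data, with changes set only in genes of higher mean level and with a fixed spread. That run says nothing of genes near 3 reads, and it left out the difference of differences between media. Tables and figures used Python 3.11.15, numpy 2.4.6, pandas 2.3.3 and matplotlib 3.10.9. Alternatives were other pseudocounts, filters and scaling, array weights, fits of the compared groups alone, a replicate block and leaving out each library. Members and gene lists were chosen with earlier results of these data known, and the comparison of DN with Sox2+ cells between media was chosen after seeing the data. The genes named are all 9 members, up to 3 called genes with the largest change from each pathway list in a comparison, the reporter genes, marker genes, and the 3 genes outside the FGF family most like each member, some left out for length.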

Additional observations from a re-analysis of the deposited data

Results flagged for a closer look

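The contrast of DN with Sox2+ cells differed between the FGF and FGF/CHIR media for 2 ligand genes, by a limma test of the difference itself. For Fgf8 the log2 fold change of DN over Sox2+ cells was larger in FGF than in FGF/CHIR by a fitted 5.26, which was 7.26 with a pseudocount of 0.25 CPM and 3.33 with 4 CPM. In FGF its level was 36.5 CPM in DN cells, against 7.01 and 2.50 CPM in Sox2+ cells, and in FGF/CHIR it was 0 CPM in DN cells, against 4.42 CPM in Sox2+ cells. For Fgf17 the fitted difference was 3.11, and its call ended with a pseudocount of 4 CPM (1.48, limma adjusted p = 0.0966) and in a fit of these libraries alone (0.463). In FGF its level was 1.86 CPM in DN cells, against 0.849 and 2.50 CPM in Sox2+ cells, and in FGF/CHIR it was 0 CPM in DN cells, against 6.68 CPM in Sox2+ cells. Both genes have no read in the FGF/CHIR DN library and the mean of Fgf17 in FGF Sox2+ cells is under the mean 3-read level, so the values depend on the pseudocount. Of these 4 groups, 3 have 1 library each, so a group cannot be told apart from its library.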

How the results depend on the processing

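Over all alternatives, 405 values of called ligand genes kept their direction and their side of the threshold, and 45 kept their direction but were no longer called. These values leave out 15 of 81 pairs of gene and comparison, where both group means were at or under the mean 3-read level. The Fgf17 call in Tbxt 7 d over FGF Sox2+ cells is among the pairs left out. The count of ligand genes called in Sox2 48 h cells over NMPs, 4 as reported, was 7 with array weights and 7 in a fit of the compared groups alone, and 3 to 4 without 1 library. In Tbxt 48 h cells over NMPs, 5 as reported, it was 3 with a pseudocount of 0.25 CPM, 2 with no filter and 2 to 3 without 1 library. In Tbxt 48 h over Sox2 48 h cells, 5 as reported, it was 3 with no filter and 2 to 4 without 1 library. Without 1 library it was 2 to 4 for FGF Sox2+ over Sox2 48 h cells, 8 for Tbxt 7 d over Tbxt 48 h cells and 4 to 6 for Tbxt 7 d over FGF Sox2+ cells. For DN over Sox2+ cells, 4 as reported, it was 2 in a fit of the compared groups alone and 4 to 5 without 1 library. For FGF/CHIR over FGF, 3 as reported, it was 6 with array weights, 2 with a pseudocount of 0.25 CPM, 2 in a fit of the compared groups alone and 3 to 5 without 1 library. For the difference between media, 2 as reported, it was 4 with array weights, 1 in a fit of the compared groups alone and 2 to 3 without 1 library. The cause was not tested, save that no filter means more genes tested and a fit of fewer groups means fewer libraries.

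Log2 fold changes of genes that were not called reversed in 14 values, with the same pairs left out. With a pseudocount of 0.25 CPM, Fgf8 in DN over Sox2+ cells was -0.59 and Fgf17 in FGF/CHIR over FGF was -0.54. With 4 CPM, Fgf9 in Tbxt 7 d over FGF Sox2+ cells was 0.023, and with array weights Fgf15 in Tbxt 48 h cells over NMPs was 0.054. Without 1 library, the ranges were -0.46 to 0.017 for that Fgf15 value and -1.02 to 0.55 for that Fgf9 value. Fgf5 ran from -0.63 to 1.98 in FGF Sox2+ over Sox2 48 h cells and from -2.40 to 0.20 in Tbxt 7 d over FGF Sox2+ cells. In DN over Sox2+ cells, Fgf4 ran from -0.15 to 0.81, Fgf8 from -0.10 to 0.49 and Fgf18 from -0.21 to 0.33. In FGF/CHIR over FGF, Fgf17 ran from -0.19 to 0.27 and Fgf18 from -0.22 to 0.33. Fgf4 ran from -0.30 to 1.62 in the difference between media.

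Same-numbered libraries of different groups correlated at -0.19 to 0.48 in 21 pairs, with 4 over 0.1. Where both groups have 2 libraries, their 2 pairs must have the same value, so the 21 pairs are not separate checks. For Sox2 48 h with FGF Sox2+ cells this value was 0.20, counted for both numbers. The 2 pairs of NMPs with Tbxt 48 h cells stood at 0.48 and 0.46, but 2 pairs are too few to take the numbers as pairing. With a replicate block, 3 ligand genes were called in Tbxt 48 h cells over NMPs, without Fgf3 (limma adjusted p = 0.0583) and Fgf18 (0.0511), and 4 in Tbxt 48 h over Sox2 48 h cells, without Fgf9 (0.0621). No paired analysis was possible because the single-library groups carry no number, for the comparisons of DN with Sox2+ cells and of media. FGF Sox2+ replicate 2 is the shallowest library, and genes under 3.76 CPM are not resolved there.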
